A study of Mus musculus with 12 samples.

Results

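Etv4 knockout clone 1 was compared with control cells in collagen I gels, over all genes with enough counts to test. The comparison used 4 of the 12 libraries of the series, and it tested 13763 of the 31017 genes listed. All cells were 4T1, a mouse mammary carcinoma line. The control libraries came from pools of clones nucleofected with control sgRNA, and clone 1 was a single clone selected after nucleofection with Cas9 and sgRNA against Etv4. Differences between 1 clone and a pool cannot be told apart from differences made by the edit. Each group had 2 libraries of polyadenylated RNA. Both groups were grown in droplets of collagen I, whose concentration per library the labels leave unclear. Gels of both groups were digested with collagenase I before RNA was taken. Whether the 2 libraries of a group came from separate cultures is not in the labels, and the spread behind each p-value may be technical. Control and clone 1 on plastic, and clone 2 in collagen, with 2 libraries each, are given only where they show how the collagen result differs.

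ETV4 belongs, with ETV1 and ETV5, to the PEA3 subfamily of ETS transcription factors. These factors bind DNA with a GGAA core and act downstream of receptor tyrosine kinases and ERK, the last kinase of the RAS cascade. In mammary and other epithelia they are known for their part in branching, in invasion and in the transcription of matrix metalloproteinase genes. Sprouty, Spred and Dusp proteins are feedback inhibitors of the same cascade.

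The control libraries held 27.1 and 28.3 M counts and those of clone 1 held 27.6 and 33.2 M. Gm26917, a gene that overlaps ribosomal RNA sequence, took 11.5 and 13.2% of the counts in control and 12.7 and 15% in clone 1. Mitochondrial genes took 1.45 to 1.76% of the counts in the 4 libraries. All 7 epithelial markers of the line were detected in every library, with a summed level of 3220 and 3320 CPM in control and 2860 and 2850 CPM in clone 1, where CPM is counts per M counts after scaling by the trimmed mean of M values. Of 14 leukocyte markers, 6 were at 0 in each control library and 8 and 9 in clone 1, and their summed level was 9.6 to 11.5 CPM in control and 8.73 to 11.5 CPM in clone 1. Ptprc, which defines leukocytes, had 1 count in each control library and 8 and 10 in clone 1. Cd68, with 195 to 319 counts a library, made up most of that sum, and Cd74, with 50 and 48 counts in control and 10 and 12 in clone 1, was the 1 marker of these called lower (log2 fold change -2.19, SE 0.45, adjusted p = 0.00027). The 9 fibroblast markers summed to 20.4 to 22.1 CPM, nearly all from Pdgfra, and the 8 endothelial markers to 4.08 to 5.99 CPM, mostly from Egfl7 with 101 to 167 counts a library. Of the markers that define these cells, Lyz2, Itgam, Pdgfrb, Col3a1 and Emcn had 0 counts in all 4 libraries, while Pecam1 had 5 to 10 and Fap 6 to 14.

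In collagen, clone 1 differed from control at 6201 genes (45.1% of the genes tested) at an adjusted p of at most 0.05. Each adjusted p given here comes from the quasi-likelihood test of edgeR, two-sided, adjusted by the Benjamini-Hochberg method across all 13763 genes. Of the called genes, 3034 were higher in clone 1 (22.0%) and 3167 were lower (23.0%). Most differences were small, with 59.7% of the calls under 0.5 on the log2 scale. At least 2-fold, 289 genes were higher (2.10%) and 693 were lower (5.04%). The excess of lower genes grew with size, since 57 genes were at least 4-fold higher and 314 at least 4-fold lower. Both libraries of clone 1 lay above both control libraries in CPM at 37.9% of the genes and below both at 38.8%. Strand was kept by the library kit, but the sources used here do not say whether counting used it, so genes overlapped on the opposite strand are uncertain. Without control replicate 1 the genes called higher numbered 2018, and calls made with 1 library in a group assume that it varies like the other groups.

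**Figure D1:**
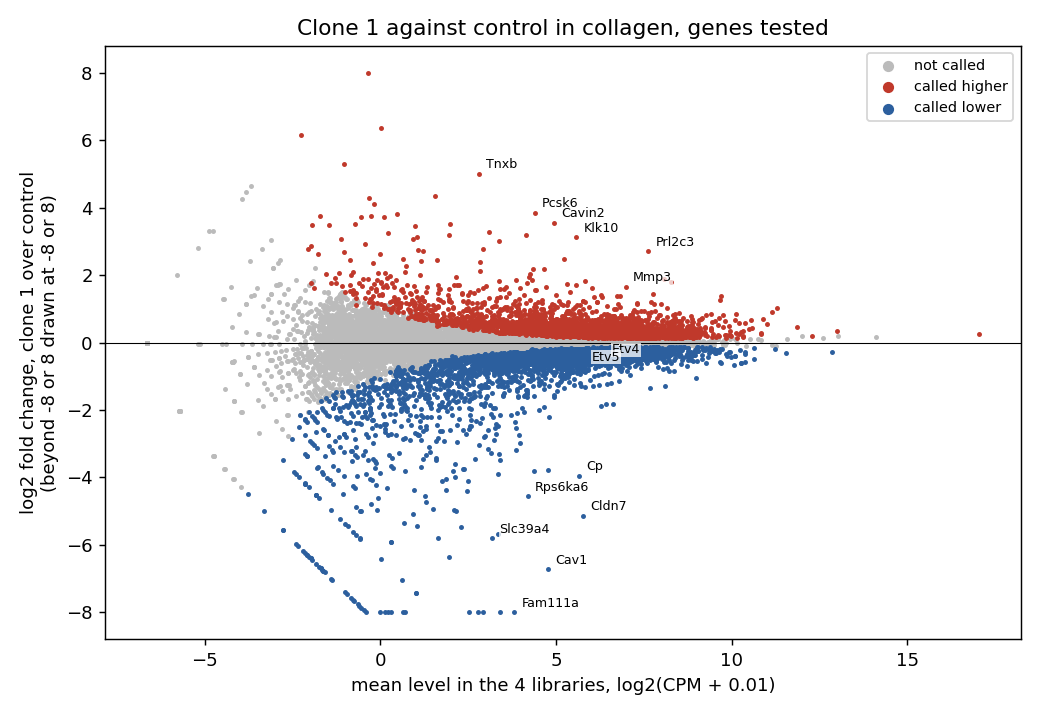
Log2 fold change of clone 1 over control in collagen (y axis, values beyond -8 or 8 drawn there) against mean level in log2 CPM (x axis) for the 13763 genes tested, with 1 point per gene and called genes coloured. The cloud of points reaches farther below 0 than above it, with 693 called genes at least 2-fold lower and 289 at least 2-fold higher.

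Etv4 RNA was detected in clone 1 at 71.6% of the control level. Etv4 (chr11:101769742-101785371 on the minus strand, mm10) measured 94.7 and 99.4 CPM in control and 69.9 and 69.1 CPM in clone 1 (log2 fold change -0.48, SE 0.06, adjusted p = 2.2e-07). The 2 groups did not overlap. Counts over whole genes do not show which bases were edited, so this level does not check the knockout. Etv5 measured 66.9 and 72 CPM in control and 43.5 and 42.2 CPM in clone 1 (log2 fold change -0.70, SE 0.07, adjusted p = 5.1e-09), the larger change of the PEA3 group. Etv1 measured 120.2 and 109.9 CPM in control and 119 and 114 CPM in clone 1 and was not called (log2 fold change 0.02, adjusted p = 0.804). Etv4 lies on chromosome 11, where the median gene was lower in clone 1, and relative to the median of its own chromosome its log2 fold change was -0.05 (adjusted p = 0.542). Against their own chromosomes Etv5 stayed lower (-0.38, adjusted p = 9.3e-05) and Etv1 was called lower (-0.20, adjusted p = 0.00894).

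Of 19 tested PEA3 factors, ERK feedback inhibitors and ERK targets, 11 rose and 6 fell, with a median log2 fold change of 0.23 against 0.00 for all genes. For each list in this comparison, the shares over all genes tested were 22.0% higher and 23.0% lower. The feedback inhibitors did not move one way. Spry1 fell, with 49.1 and 50.5 CPM in control and 29.9 and 27.6 CPM in clone 1 (log2 fold change -0.79, SE 0.08, adjusted p = 4.4e-09), and 24.4% of its exon length is overlapped by a gene on the opposite strand. Dusp6, the cytoplasmic ERK phosphatase, measured 266 and 285 CPM in control and 204 and 200.5 CPM in clone 1 (log2 fold change -0.45, SE 0.05, adjusted p = 5.6e-08). Dusp5, the nuclear ERK phosphatase, rose, with 133 and 146 CPM in control and 304 and 313 CPM in clone 1 (log2 fold change 1.15, SE 0.07, adjusted p = 2.9e-13), and 22.1% of its exon length is overlapped likewise. Egr1, an immediate early transcription factor, measured 569.6 and 592 CPM in control and 904 and 892 CPM in clone 1 (log2 fold change 0.63, SE 0.05, adjusted p = 6.9e-11). Both phosphatases act on ERK and moved in opposite directions, with no overlap between the groups for either. Dusp6 was chosen after its values were seen.

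Among 11 EGF family ligands, ERBB receptors and their inhibitors, 3 rose and 5 fell (median -0.37). The 3 that rose were ligands, and the 5 that fell were the ligand gene Btc (-0.76), 2 receptors and 2 inhibitors. Of the 2 receptors, Erbb2 (-0.40) was not called relative to the median of its chromosome (0.03, adjusted p = 0.787). Btc and Erbb2 were chosen after their values were seen. Areg, which encodes the EGFR ligand amphiregulin, measured 116 and 118 CPM in control and 299 and 329.6 CPM in clone 1 (log2 fold change 1.43, SE 0.06, adjusted p = 6.5e-17). Erbb3 measured 50.6 and 50.8 CPM in control and 28.9 and 31.8 CPM in clone 1 (log2 fold change -0.74, SE 0.07, adjusted p = 7.8e-09). Errfi1, an inhibitor of EGFR, measured 516 and 529.9 CPM in control and 324 and 319.9 CPM in clone 1 (log2 fold change -0.70, SE 0.05, adjusted p = 2.8e-11), and Lrig1, another, had a log2 fold change of -0.37. Egfr itself was low, with 4.96 and 4.23 CPM in control and 5.81 and 5.25 CPM in clone 1, and was not called.

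In all, 5 genes with at least 5 CPM in control cells had at most 3 counts in both clone 1 libraries together. Zfp518b (chr5:38668484-38684826), a zinc finger gene, had 1183 counts in the control libraries and 0 in those of clone 1, so its level was at least 409-fold lower against a floor of 3 counts over the group. Gpc4 (chrX:52053021-52165252), a cell surface heparan sulfate proteoglycan, had 846 counts against 0 and was at least 292-fold lower. Rasef (chr4:73714579-73790994), a Rab family GTPase with EF-hand domains, had 767 against 0 and was at least 265-fold lower. All 3 were present in clone 2, at 27.4 and 29.1 CPM for Zfp518b, 34 and 33.5 CPM for Gpc4 and 25.3 and 25.4 CPM for Rasef.

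Fam111a (chr19:12545740-12589768), a nuclear protease that acts at replication forks, had 1550 counts in control and 3 in clone 1, a ratio of 536 (95% counting interval 183 to 2601). Of its exon length, 14.4% is overlapped by a gene on the opposite strand. Ube2ql1 (chr13:69702832-69739889), a gene of the E2 ubiquitin-conjugating family, had 639 against 2, a ratio of 331 (91.3 to 2741). These intervals and floors cover counting error only. The same 5 genes had 0 to 3 counts in both clone 1 libraries grown on plastic. They lie on 5 chromosomes (X, 4, 5, 13 and 19). In clone 2 in collagen, Fam111a averaged 14.0 CPM and Ube2ql1 0.86 CPM, against 28.0 and 11.5 CPM in control.

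Further genes were close to absent in clone 1. Cav1 (chr6:17306335-17341452), the main structural protein of caveolae, measured 54.7 and 53.7 CPM in control and 0.57 and 0.451 CPM in clone 1 (log2 fold change -6.73, SE 0.15, adjusted p = 1.7e-22). Cldn7 (chr11:69964779-69967885), a claudin of epithelial junctions, measured 101 and 109.9 CPM in control and 3.23 and 2.80 CPM in clone 1 (log2 fold change -5.13, SE 0.10, adjusted p = 1.6e-23). Rab25, a Rab11 family GTPase of epithelial recycling endosomes, measured 19.5 and 20.2 CPM in control and 0.456 and 0.322 CPM in clone 1 (log2 fold change -5.67, SE 0.20, adjusted p = 9.4e-18). Both libraries of clone 1 lay far below both control libraries for each of these 3 genes.

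Slc39a4, the intestinal zinc importer ZIP4, measured 18.2 and 17.7 CPM in control and 0.418 and 0.226 CPM in clone 1 (log2 fold change -5.81, SE 0.28, adjusted p = 4.5e-15), and Cp, the ferroxidase ceruloplasmin, measured 97.7 and 93.3 CPM in control and 6.49 and 5.89 CPM in clone 1 (log2 fold change -3.95, SE 0.08, adjusted p = 9.1e-23). Itgb2, the beta subunit of leukocyte integrins, measured 19.1 and 19.2 CPM in control and 1.25 and 1.29 CPM in clone 1 (log2 fold change -3.91, SE 0.17, adjusted p = 6.9e-16). Signalling genes were in this group too. Rps6ka6, a kinase of the RSK family, measured 37.2 and 33.6 CPM in control and 1.44 and 1.55 CPM in clone 1 (log2 fold change -4.56, SE 0.13, adjusted p = 7.3e-20), and Spata13, a guanine nucleotide exchange factor, had a log2 fold change of -4.12 from 10.5 and 10.9 CPM. Otop1, a proton channel, and Pbxip1 had -4.42 and -3.81. These 15 genes, from Zfp518b to Pbxip1, had the largest falls among genes of 5 CPM or more on average, and all 15 were also called lower in clone 1 on plastic.

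Of the 15 genes with the largest rises, 14 are given here, and they covered secreted, membrane and matrix proteins. Tnxb (chr17:34670535-34719815), a tenascin of the extracellular matrix, measured 0.401 and 0.43 CPM in control and 13.5 and 13.6 CPM in clone 1 (log2 fold change 5.01, SE 0.31, adjusted p = 1.4e-12). Pcsk6 (chr7:65861734-66050386), a proprotein convertase that cleaves growth factor precursors, measured 2.92 and 2.54 CPM in control and 38.6 and 40.5 CPM in clone 1 (log2 fold change 3.85, SE 0.13, adjusted p = 2.8e-18). Cavin2 (chr1:51289126-51302960), a coat protein of caveolae, measured 5.69 and 3.94 CPM in control and 58.3 and 54.9 CPM in clone 1 (log2 fold change 3.55, SE 0.11, adjusted p = 6e-19). These 3 genes were low in control and 10 times or more above it in clone 1.

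Anxa8, a calcium-dependent phospholipid binding protein, measured 3.61 and 3.40 CPM in control and 33.3 and 31 CPM in clone 1 (log2 fold change 3.19, SE 0.18, adjusted p = 1.1e-13). Klk10, a kallikrein of the serine protease fold, measured 10.0 and 9.60 CPM in control and 89.5 and 82.7 CPM in clone 1 (log2 fold change 3.13, SE 0.10, adjusted p = 1.9e-18). Fgfbp1, which releases FGFs bound to the matrix, measured 12.2 and 10.9 CPM in control and 63.9 and 64.2 CPM in clone 1 (log2 fold change 2.47, SE 0.09, adjusted p = 5.8e-18). Prl2c3, a placental prolactin family gene with near-identical copies that could share its reads, had a log2 fold change of 2.72. The other 7 were Cdh23 (2.78), Sqor (2.40), Zfp575 (2.19), Ass1 (2.17), Tmem117 (2.11), Map6 (2.03) and Sirpa (1.96). Ass1 encodes the argininosuccinate synthase of arginine synthesis, and Sirpa the receptor for CD47. All 14 were also called higher in clone 1 on plastic.

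**Figure D2:**
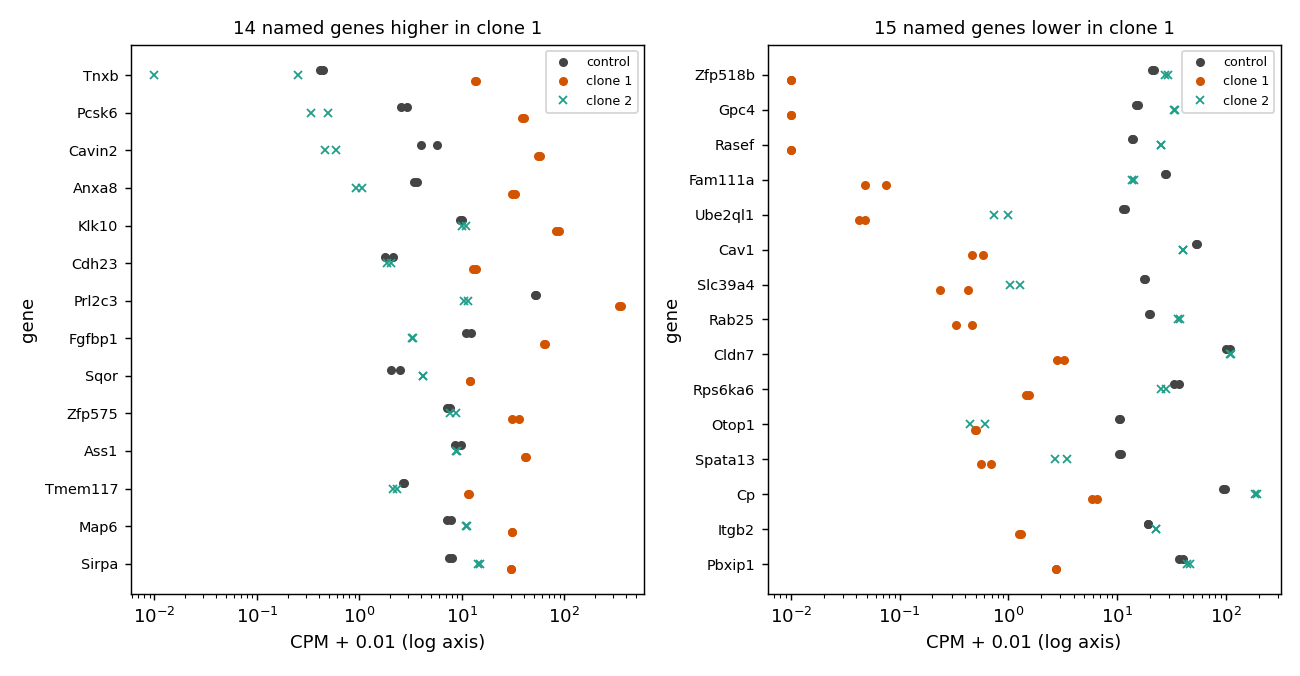
CPM plus 0.01 on a log axis (x) of 14 of the 15 genes with the largest rises and the 15 with the largest falls (y), with each control, clone 1 and clone 2 library in collagen as its own point and libraries at 0 counts drawn at the left edge. Replicates of a group mostly lie close together, but those of clone 2 lie far apart for Tnxb, at or near 0 counts. Clone 2 lies nearer to control for Cldn7 and Rab25 but nearer to clone 1 for Slc39a4 and Otop1.

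The caveolar genes split. Of 9 tested, 4 rose and 2 fell (median 0.12), and the largest changes went in opposite directions. Cav1 was close to absent and Cavin1, the coat protein needed for caveolae to form, fell, with 382 and 399.6 CPM in control and 159.5 and 159 CPM in clone 1 (log2 fold change -1.30, SE 0.06, adjusted p = 8.7e-15). Cavin2 rose, and so did Ehd4, a membrane remodelling ATPase, with 209.7 and 208 CPM in control and 307 and 289 CPM in clone 1 (log2 fold change 0.52, SE 0.06, adjusted p = 2.4e-08). Cav2 and Cavin3 were not called.

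Tight junction genes had 6 of 15 down and 1 up (median -0.20), and 46.7% of them were called against 45.1% of all genes. Beside Cldn7, Cldn3 fell, with 31.8 and 36.5 CPM in control and 17.4 and 18.3 CPM in clone 1 (log2 fold change -0.93, SE 0.08, adjusted p = 7.9e-10), and so did the junction adhesion receptor Cxadr, with 166 and 156 CPM in control and 106 and 110.1 CPM in clone 1 (log2 fold change -0.57, SE 0.08, adjusted p = 1.4e-06). Tjp3, a scaffold of the same junctions, was low and fell further (-3.42). The 1 riser, Cldn4 (0.14, chosen after its value was seen), was no longer called when any 1 of the 4 libraries was left out, and it had -0.09 relative to the median of its chromosome.

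Cadherin and desmosome genes moved both ways, with 4 of 17 up and 7 down (median 0.00). Dsc2, a desmosomal cadherin, was the most changed, with 11.5 and 12.1 CPM in control and 1.22 and 0.934 CPM in clone 1 (log2 fold change -3.46, SE 0.23, adjusted p = 2.9e-12). Epcam measured 292 and 304 CPM in control and 175 and 185 CPM in clone 1 (log2 fold change -0.73, SE 0.05, adjusted p = 1.1e-11), and Pkp2 and Jup, desmosomal plaque genes, had -0.69 and -0.50. Cdh1, which encodes E-cadherin, measured 452 and 458 CPM in control and 398 and 416 CPM in clone 1 and was called by a narrow margin (log2 fold change -0.16, SE 0.06, adjusted p = 0.0319). That call of Cdh1, which was chosen after its values were seen, was lost when any 1 of the 4 libraries was left out, with adjusted p from 0.0806 to 0.179. Jup is on chromosome 11 and was not called relative to that chromosome's median. Without control replicate 2 or clone 1 replicate 1, 2 genes of the list were called higher.

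Of 8 keratins and vimentin, 3 rose and 3 fell (median 0.09). Krt14, a basal keratin, measured 34.8 and 36.4 CPM in control and 16 and 14.3 CPM in clone 1 (log2 fold change -1.24, SE 0.09, adjusted p = 2.4e-11), while Krt80 (0.61) and Krt19 (0.39) rose. The simple epithelial keratin Krt8 had -0.27, and vimentin was not called (-0.06). Relative to the median of its chromosome vimentin was called lower (-0.18, adjusted p = 0.00384). Among 13 regulators of epithelial to mesenchymal transition, 3 fell and 1 rose, so 30.8% were called against 45.1% of all genes. Zeb1, which represses epithelial genes, had 48 counts in control and 1 in clone 1, a ratio of 49.8 (8.52 to 2006). Esrp1, an epithelial splicing factor, had -0.38, and Ovol1, an epithelial transcription factor, -0.59. The riser Grhl1 (0.73) was no longer called when any 1 of the 4 libraries was left out.

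The promoter of Cldn7 holds an ETS site, the motif class bound by ETV4, and is shown for that reason. The motif searched was CCGGAAGT on both strands, and 3.89% of 32851 RefSeq promoter windows of 300 bases (GRCm38.p6, 250 before to 50 after each start) held it. Cldn7 has 2 windows, and the match begins 67 bases before the start of the downstream one, inside the gene as GENCODE draws it (chr11:69965343-69965372, plus strand). Capitals mark the match, which reads on the other strand.
Cldn7: taggggccaagACTTCCGGttcaggtgagt
A match is a description of the letters and shows no binding. Cldn7 was low in clone 1 and not in clone 2, which measured 109 and 111 CPM.

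Matrix proteases and their inhibitors rose more often than they fell, with 18 of 29 up and 6 down (median 0.30). Mmp3, which encodes stromelysin 1, measured 58.8 and 63 CPM in control and 185 and 199.5 CPM in clone 1 (log2 fold change 1.66, SE 0.07, adjusted p = 3.8e-16). Mmp14, a membrane-bound collagenase, measured 167 and 182 CPM in control and 307 and 315 CPM in clone 1 (log2 fold change 0.83, SE 0.06, adjusted p = 5.4e-12). Adam8, a membrane protease, measured 32.6 and 32.6 CPM in control and 67.4 and 74.2 CPM in clone 1 (log2 fold change 1.12, SE 0.08, adjusted p = 4.1e-11). Adamts1, which cleaves proteoglycans, had 0.71, and Mmp10, which encodes stromelysin 2, rose, with 13.1 and 13.2 CPM in control and 20.9 and 22.4 CPM in clone 1 (log2 fold change 0.71, SE 0.13, adjusted p = 4.1e-05). All 5 lay above control in both libraries.

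The plasminogen system was in the list too. Plau and Plaur, the urokinase and its receptor, rose by small amounts (0.44 and 0.34). The other activator, Plat, fell (-1.28), and the protease inhibitor Serpine2 measured 9.52 and 9.35 CPM in control and 1.29 and 1.58 CPM in clone 1 (log2 fold change -2.70, SE 0.23, adjusted p = 3.7e-10). Mmp9, a gelatinase, fell by -0.38 on the log2 scale. Plau, Plaur, Plat, Serpine2 and Mmp9 were chosen after their values were seen.

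The promoters of Mmp3 and Mmp10 are shown because their difference between clone 1 and control went opposite ways in collagen and on plastic. Both hold an AP-1 site, searched as TGANTCA on both strands, which 7.81% of the windows and 5 of the 20 protease genes with a window held. Genes were counted if any of their windows held it, which is another measure than the share of windows. The regions run from 120 bases to 1 base before the RefSeq start, on the plus strand, at chr9:7445702-7445821 for Mmp3 and chr9:7502222-7502341 for Mmp10, and capitals mark the match.
Mmp3: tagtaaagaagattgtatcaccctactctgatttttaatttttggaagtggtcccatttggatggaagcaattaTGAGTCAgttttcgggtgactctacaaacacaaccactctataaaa
Mmp10: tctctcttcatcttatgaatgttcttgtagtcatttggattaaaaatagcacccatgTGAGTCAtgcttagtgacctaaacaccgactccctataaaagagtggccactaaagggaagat
The match begins 46 bases before the start of Mmp3 and 63 before that of Mmp10. No ETS match of the form CCGGAAGT lay in any of the 20 genes' windows. Other sites with a GGAA core were not searched, and the Mmp3 sequence holds that core outside this form.

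Of 30 collagens and matrix components, 8 rose and 11 fell (median -0.05). Podnl1, a leucine-rich repeat proteoglycan, measured 27.9 and 26.1 CPM in control and 3.30 and 4.70 CPM in clone 1 (log2 fold change -2.74, SE 0.14, adjusted p = 1.6e-14). Thbs1, thrombospondin 1, measured 694 and 663 CPM in control and 311 and 347 CPM in clone 1 (log2 fold change -1.04, SE 0.06, adjusted p = 1.4e-13). Col4a5, a basement membrane collagen chain, measured 15.9 and 14.4 CPM in control and 3.0 and 3.51 CPM in clone 1 (log2 fold change -2.21, SE 0.14, adjusted p = 9.3e-13). Col5a1, a fibrillar collagen chain, moved the other way, with 21.9 and 22.2 CPM in control and 60.9 and 62.9 CPM in clone 1 (log2 fold change 1.49, SE 0.09, adjusted p = 2e-13).

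Fn1, fibronectin, was abundant and fell, with 1378 and 1276 CPM in control and 821 and 865 CPM in clone 1 (log2 fold change -0.66, SE 0.05, adjusted p = 2.9e-10). The laminin chain genes Lama3 and Lamb3 rose, Lama3 by 0.83 and Lamb3 by 0.66 on the log2 scale. Fn1, Lama3 and Lamb3 were chosen after their values were seen.

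Of 21 integrins and collagen receptors, 8 rose and 7 fell (median -0.06). Itga6, the alpha subunit of laminin receptors, measured 493 and 472 CPM in control and 1150.0 and 1163 CPM in clone 1 (log2 fold change 1.26, SE 0.05, adjusted p = 2.3e-16). Itga7, another laminin receptor subunit, measured 16.7 and 15.9 CPM in control and 6.23 and 6.80 CPM in clone 1 (log2 fold change -1.32, SE 0.11, adjusted p = 4.4e-10). The syndecans moved in opposite directions, Sdc1 with 241 and 246 CPM in control and 364 and 385 CPM in clone 1 (log2 fold change 0.62, SE 0.05, adjusted p = 1.3e-10) and Sdc4 with a log2 fold change of -0.47. Itga2, the alpha subunit of a collagen I receptor, had 0.27 and was chosen after its values were seen. Among the genes that overlap no other gene, 3 of the list rose and 5 fell.

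Of 18 YAP targets, 7 rose and 4 fell (median 0.04). The matricellular genes Cyr61 and Ctgf led the rises. Cyr61 measured 113 and 117 CPM in control and 413 and 435 CPM in clone 1 (log2 fold change 1.88, SE 0.05, adjusted p = 1e-19), and Ctgf measured 15 and 14.7 CPM in control and 32 and 35 CPM in clone 1 (log2 fold change 1.18, SE 0.09, adjusted p = 7.1e-11). Arhgef17, a RhoA exchange factor, and Crim1 had 0.71 and 0.55. The count of genes that fell was 2 without control replicate 1, control replicate 2 or clone 1 replicate 2.

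Among 18 actin and SRF targets, 8 rose and 3 fell (median 0.10). Cobl, an actin nucleator, measured 11 and 10.5 CPM in control and 34 and 29.7 CPM in clone 1 (log2 fold change 1.56, SE 0.11, adjusted p = 2.1e-11). Actg1, cytoplasmic gamma actin, measured 1532 and 1681 CPM in control and 1092 and 1071 CPM in clone 1 (log2 fold change -0.57, SE 0.05, adjusted p = 1.1e-09). Cnn2 and Tpm1, actin-binding genes, had -0.63 and -0.39. Relative to the median of its chromosome, the fall of Actg1 was -0.14 (adjusted p = 0.0338). The number that rose was 3 without control replicate 1, 5 without control replicate 2, 4 without clone 1 replicate 1 and 3 relative to the chromosome medians.

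The genes of MHC class I presentation fell, with 14 of 20 lower and 2 higher (median -0.48). They include class I molecules, which show peptides at the cell surface, and the proteins that make, transport and load those peptides inside the cell. Nlrc5, the transactivator of class I genes, measured 27.6 and 27.3 CPM in control and 5.77 and 7.31 CPM in clone 1 (log2 fold change -2.06, SE 0.12, adjusted p = 4.6e-13). Tap2, a subunit of the peptide transporter with 18.5% of its exon length overlapped on the opposite strand, measured 16.7 and 16.8 CPM in control and 5.88 and 5.48 CPM in clone 1 (log2 fold change -1.56, SE 0.12, adjusted p = 1.3e-10). Psmb10, an immunoproteasome subunit, measured 20.7 and 22.5 CPM in control and 8.43 and 8.15 CPM in clone 1 (log2 fold change -1.38, SE 0.10, adjusted p = 1.8e-11), and its partners Psmb8 and Psmb9 had -2.95 and -3.81.

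The class I heavy chains H2-K1 and H2-D1 fell less, by -0.52 and -0.34 on the log2 scale, and B2m measured 362 and 335 CPM in control and 252 and 238 CPM in clone 1 (log2 fold change -0.51, SE 0.05, adjusted p = 9.4e-09). The 2 risers were endoplasmic reticulum chaperones that also serve other proteins, Calr with 422 and 435 CPM in control and 692 and 720.1 CPM in clone 1 (log2 fold change 0.72, SE 0.05, adjusted p = 6.3e-12) and Pdia3 with 0.51. Many of these genes sit close to others in the MHC region, and among the genes of the list that overlap no other gene 2 fell and 1 rose. Psmb8, Psmb9, H2-K1, H2-D1, B2m and Pdia3 were chosen after their values were seen.

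Of 26 interferon response genes, 18 fell and 0 rose in edgeR's test (median -0.76). At an unadjusted p of at most 0.05, 0 were higher, and DESeq2 called 0 higher. Sp100, a nuclear body protein, measured 16.5 and 15.8 CPM in control and 1.63 and 1.68 CPM in clone 1 (log2 fold change -3.28, SE 0.16, adjusted p = 1.2e-14). Parp14, an ADP-ribosyltransferase, measured 38.4 and 34.9 CPM in control and 14.5 and 14 CPM in clone 1 (log2 fold change -1.37, SE 0.09, adjusted p = 6.3e-12). Gbp2, a guanylate-binding GTPase, measured 9.12 and 9.96 CPM in control and 2.66 and 3.48 CPM in clone 1 (log2 fold change -1.62, SE 0.16, adjusted p = 6.7e-09), and Parp9 had -0.88.

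Isg15, a ubiquitin-like modifier, was low in both groups, with 5.11 and 5.45 CPM in control and 1.59 and 1.29 CPM in clone 1 (log2 fold change -1.88, SE 0.25, adjusted p = 7e-07). The RNA sensors Ddx58, which encodes RIG-I, and Dhx58, which encodes LGP2, had -0.98 and -2.20, and the transcription factor gene Irf1 had -0.59. Cmpk2 and Irf9 were not called. In clone 2, compared with the same control libraries, 20 genes of the list were higher and 3 lower, against 11.9 and 17.4% of all genes. The direct test of clone 2 against clone 1 called 22 of the 26 higher in clone 2 and 2 lower, against 26.4 and 28.5% of all genes. Irf1 is on chromosome 11 and was not called relative to that chromosome's median (-0.17, adjusted p = 0.124). Isg15, Ddx58, Dhx58 and Irf1 were chosen after their values were seen.

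The interferon-stimulated response element is the motif bound by STAT and IRF complexes, and 2 promoters of genes that fell are shown with it. The core searched was GAAA, any 2 bases and GAAA again, on both strands, and it was in 3.44% of all windows, in 10 of the 20 interferon genes with a window and in 5 of 17 MHC class I genes. A gene was counted if any of its windows held the core, so shares of windows and of genes are unlike measures. Of 13 interferon genes that fell and had a window, 8 held the core. Isg15 lies on the minus strand and its sequence runs from 120 bases to 1 base before the start (chr4:156200819-156200938), and that of Gbp2 is on the plus strand, from 69 to 40 bases before it (chr3:142620594-142620623). Capitals mark the matches, 3 that overlap in Isg15 and 1 on the other strand in Gbp2.
Isg15: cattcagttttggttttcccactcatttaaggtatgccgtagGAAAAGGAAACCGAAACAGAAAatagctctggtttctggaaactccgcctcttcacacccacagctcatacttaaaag
Gbp2: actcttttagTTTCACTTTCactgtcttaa
Because these lists were chosen with their direction known, the shares describe the letters in these windows only.

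NF-kB genes and chemokines moved both ways, with 5 of 28 up and 10 down (median -0.19), and 53.6% were called against 45.1% of all genes. Cxcl1 and Cxcl5, neutrophil chemokines, rose, Cxcl1 with 98.2 and 102 CPM in control and 213 and 228 CPM in clone 1 (log2 fold change 1.14, SE 0.05, adjusted p = 4e-15) and Cxcl5 with a log2 fold change of 0.76. Vcam1, an adhesion receptor, measured 22.4 and 23.5 CPM in control and 7.59 and 7.38 CPM in clone 1 (log2 fold change -1.61, SE 0.10, adjusted p = 2.1e-12). Tnip1, an inhibitor of NF-kB, had -0.88. Csf1 and Cxcl2 were not called. The chemokine genes Cxcl2 (-1.19) and Cxcl3 (-1.35, chosen after its value was seen) had values opposite to those of Cxcl1 and Cxcl5. Relative to chromosome medians both were called lower (adjusted p = 0.0483 and 0.00172).

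Hypoxia and glycolysis genes were lower, with 15 of 30 down and 3 up (median -0.18). Aldoc, an aldolase, measured 18.8 and 19.1 CPM in control and 1.86 and 1.93 CPM in clone 1 (log2 fold change -3.31, SE 0.16, adjusted p = 8.4e-15). Car9, the carbonic anhydrase induced by HIF, measured 18.6 and 17.7 CPM in control and 7.52 and 8.67 CPM in clone 1 (log2 fold change -1.16, SE 0.12, adjusted p = 1.3e-08). Bnip3, a mitophagy receptor, measured 32.1 and 32 CPM in control and 19.6 and 18.1 CPM in clone 1 (log2 fold change -0.77, SE 0.09, adjusted p = 6.2e-08). P4ha1, a collagen prolyl hydroxylase subunit, had -0.57. The glycolytic enzymes Ldha (-0.12) and Pgam1 (-0.11) were not called. Relative to the medians of their chromosomes both were called lower (-0.27 and -0.25). Of the exon length of Bnip3, 22.3% is overlapped on the opposite strand. The 3 that rose were called in none of the fits without control replicate 1, control replicate 2 or clone 1 replicate 1.

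Fatty acid synthesis genes fell, with 10 of 14 down and 1 up (median -0.22). Fasn, the fatty acid synthase, measured 1502 and 1478 CPM in control and 982 and 966 CPM in clone 1 (log2 fold change -0.61, SE 0.05, adjusted p = 9.5e-11). Srebf1, the transcription factor of this pathway, measured 183 and 194 CPM in control and 110.5 and 123 CPM in clone 1 (log2 fold change -0.69, SE 0.06, adjusted p = 6.2e-10). Acly, which makes cytosolic acetyl-CoA, measured 538 and 553 CPM in control and 387 and 375 CPM in clone 1 (log2 fold change -0.52, SE 0.05, adjusted p = 1.6e-09). All 3 are on chromosome 11, and relative to its median they had -0.18 (adjusted p = 0.00389), -0.27 (0.00112) and -0.09 (0.158). Fads1, a desaturase on chromosome 19, had -0.36. Without control replicate 2, and without clone 1 replicate 2, 6 genes of the list were called lower. Without control replicate 1 or clone 1 replicate 2, none was called higher.

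Cholesterol synthesis genes moved both ways, with 6 of 21 up and 7 down (median -0.11). Fdft1, squalene synthase, measured 148 and 150.2 CPM in control and 208 and 206 CPM in clone 1 (log2 fold change 0.47, SE 0.05, adjusted p = 7.1e-08), and Sqle, Cyp51 and Mvk had 0.25, 0.34 and 0.44. The falls numbered 3 without control replicate 2, 3 without clone 1 replicate 1 and 2 without clone 1 replicate 2.

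Genes of DNA replication and mitosis were higher by small amounts, with 18 of 32 up and 5 down (median 0.18). Rrm2, a subunit of ribonucleotide reductase, measured 142 and 154 CPM in control and 248 and 239 CPM in clone 1 (log2 fold change 0.71, SE 0.06, adjusted p = 2.8e-10). Mki67, which marks cycling cells, measured 742 and 655 CPM in control and 1105 and 1067 CPM in clone 1 (log2 fold change 0.64, SE 0.06, adjusted p = 8.9e-09). Cenpa, a centromeric histone, and Mcm7, a helicase subunit, had 0.57 and 0.42. In bulk RNA, more cycling cells and more RNA per cell cannot be told apart. The falls numbered 3 without control replicate 2 and 2 without clone 1 replicate 2.

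Of 15 Cdk inhibitors, cyclins and related genes, 7 rose and 2 fell (median 0.18). Cdkn2c and Cdkn2d, inhibitors of CDK4 and CDK6, had 0.43 and 0.83, and Cdk6 had 0.33. Trp53, which encodes p53, measured 61.4 and 55.3 CPM in control and 38.4 and 40.5 CPM in clone 1 (log2 fold change -0.56, SE 0.08, adjusted p = 1.2e-06). Trp53, on chromosome 11, and Cdk6, on chromosome 5, were not called relative to the medians of their chromosomes.

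ER stress and ATF4 genes rose, with 13 of 24 up and 5 down (median 0.17). Hspa5, the chaperone BiP, measured 843 and 869 CPM in control and 1303 and 1398 CPM in clone 1 (log2 fold change 0.66, SE 0.05, adjusted p = 1.7e-10). Chac1, a glutathione-degrading enzyme, measured 6.31 and 7.02 CPM in control and 17.3 and 16.8 CPM in clone 1 (log2 fold change 1.35, SE 0.14, adjusted p = 9.7e-09), and Hsp90b1 had 0.38. Ddit4, an inhibitor of mTORC1, went the other way, with 71.6 and 78 CPM in control and 29.8 and 31.6 CPM in clone 1 (log2 fold change -1.28, SE 0.10, adjusted p = 4.9e-11). The number that rose was 6 without control replicate 1, 8 without control replicate 2 and 6 without clone 1 replicate 1, and the number that fell was 3 without control replicate 2 or clone 1 replicate 2.

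Immediate early genes rose, with 12 of 19 up and 4 down (median 0.32). Dusp1, a MAP kinase phosphatase, measured 138 and 139 CPM in control and 466 and 497 CPM in clone 1 (log2 fold change 1.79, SE 0.05, adjusted p = 1.1e-19). Nr4a1, an orphan nuclear receptor, measured 73.9 and 76 CPM in control and 122 and 135 CPM in clone 1 (log2 fold change 0.78, SE 0.07, adjusted p = 1.6e-09). Jund had 0.40, with 52.6% of its exon length overlapped on the opposite strand. Egr1 was far higher in collagen than on plastic in control too, with 569.6 and 592 CPM in collagen and 1.12 and 0.877 CPM on plastic, while Jund was lower, with 164 and 179 CPM in collagen and 356 and 339 CPM on plastic. The list as a whole was not tested between formats in control. Collagenase digestion, culture format and count table change together between these libraries and cannot be told apart.

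Cytosolic heat shock genes moved both ways, with 4 of 12 up and 2 down (median 0.11). Hsph1, a co-chaperone of HSP70, measured 162 and 155 CPM in control and 350.5 and 353 CPM in clone 1 (log2 fold change 1.15, SE 0.05, adjusted p = 1.1e-15), and Hspb8 had 0.80. Hsp90aa1 (0.24) and Hspa1b (0.35) were not called relative to the medians of chromosomes 12 and 17. Of 19 zinc transporters and metallothioneins, 7 rose and 6 fell (median 0.07), led by Slc39a4. Slc30a4 had 0.47, Slc39a11 -0.91 and Mt1 -0.50. The risers of that list numbered 3 without control replicate 1 and 2 relative to the chromosome medians.

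Of 21 lysosome and autophagy genes, 6 rose and 7 fell (median -0.04). Hexa, a lysosomal hexosaminidase subunit, measured 13.9 and 13 CPM in control and 2.01 and 1.84 CPM in clone 1 (log2 fold change -2.81, SE 0.18, adjusted p = 2e-12). Hexa, Sqstm1 and Dll1 (a Notch ligand) are overlapped on the opposite strand over 12.8, 17.3 and 20.5% of their exon length. Gaa, the lysosomal alpha-glucosidase, had -0.80, and Lamp1, a lysosomal membrane protein, 0.47. Sqstm1, the autophagy receptor p62, had -0.54 and was not called relative to the median of chromosome 11.

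Notch ligands moved in opposite directions, within a list of 12 where 5 rose and 3 fell (median 0.07). Jag1 measured 124 and 124 CPM in control and 49.8 and 55.1 CPM in clone 1 (log2 fold change -1.24, SE 0.07, adjusted p = 4.7e-14). Jag2 measured 23.7 and 24.9 CPM in control and 54.4 and 58 CPM in clone 1 (log2 fold change 1.21, SE 0.09, adjusted p = 1.8e-11), and Dll1 measured 45 and 46.3 CPM in control and 84.8 and 86.8 CPM in clone 1 (log2 fold change 0.91, SE 0.07, adjusted p = 8e-11). The receptor Notch3 had -2.59, from 8.21 and 9.28 CPM in control.

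In the Wnt list, 8 of 19 rose and 7 fell (median 0.07). The ligand Wnt7a had 0.60 and the transcription factor Tcf7l2 0.67, while the receptors Fzd1 and Fzd7 had -1.23 and -0.54. Without control replicate 2, 4 genes of that list fell. In the TGF-beta, BMP and Id list, 10 of 24 rose and 6 fell (median 0.03), and relative to the chromosome medians 6 rose and 7 fell. The BMP-induced inhibitors Id1 and Id2 led the rises. Id1 measured 32.2 and 28.5 CPM in control and 68.2 and 58.9 CPM in clone 1 (log2 fold change 1.06, SE 0.09, adjusted p = 5.5e-10), and Id2 had 0.80. Ltbp1 and Ltbp2, which hold latent TGF-beta in the matrix, had 0.70 and 0.78.

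Clone 1 was also grown on plastic, with its own 2 libraries and its own 2 control libraries. There, 5471 genes were called (39.8%), 2719 higher (19.8%) and 2752 lower (20.0%). Of the genes called in collagen, 3775 were called on plastic in the same direction, which is 60.9% of the collagen calls and 69.0% of the plastic calls. Of the 982 genes at least 2-fold different in collagen, 620 were called in the same direction on plastic and 6 in the opposite one. The same clone enters both comparisons, so this repeats the measurement and not the edit. Across all genes tested, the log2 fold changes on plastic and in collagen had a Pearson correlation of 0.573 and a Spearman correlation of 0.576. Over the 11430 genes of at least 1 CPM across the 8 libraries, these were 0.723 and 0.682, both as descriptions across genes.

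The difference between clone 1 and control itself differed between formats at 966 genes (7.02%), with 492 higher in collagen (3.57%) and 474 lower (3.44%). This count was 504 without control replicate 1, 434 without control replicate 2, 543 without clone 1 replicate 1 and 538 without clone 1 replicate 2, all in collagen. Mmp3 was among the largest. On plastic Mmp3 measured 39.3 and 40.5 CPM in control and 11 and 12.5 CPM in clone 1 (log2 fold change -1.76, SE 0.11, adjusted p = 1.2e-12), and the difference between formats was 3.42, SE 0.13, adjusted p = 4.1e-16. Mmp10 reversed in the same way, with 9.23 and 6.75 CPM in control and 1.12 and 1.12 CPM in clone 1 on plastic and a difference between formats of 3.54, SE 0.29, adjusted p = 4e-09. In collagen both stromelysin genes were above control in clone 1, and on plastic both were below it.

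Txnip, an inhibitor of thioredoxin that responds to glucose, reversed the other way. Of its exon length, 19.4% is overlapped on the opposite strand. It measured 47.3 and 50.9 CPM in control and 25.3 and 23.9 CPM in clone 1 in collagen and 4.89 and 4.72 CPM in control and 14.7 and 19.4 CPM in clone 1 on plastic, a difference between formats of -2.81, SE 0.18, adjusted p = 3.1e-11. Calcoco1, an autophagy receptor gene, had -0.78 in collagen and 0.95 on plastic. Cplx2, a regulator of vesicle fusion, had 1.08 in collagen and 2.79 on plastic. Cplx2 was no longer called for the difference when any 1 of the 4 collagen libraries was left out.

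Other genes were near 0 on plastic, where a fold is poorly bounded. Bspry, an epithelial calcium transport regulator, measured 10.1 and 9.06 CPM in control and 0.228 and 0.193 CPM in clone 1 in collagen and had 593 counts in control and 0 in clone 1 on plastic (at least 182-fold lower). Its difference between formats had an adjusted p of 0.0101. Tmem266 measured 8.71 and 8.45 CPM in control and 0.152 and 0.354 CPM in clone 1 in collagen and 15.8 and 14.4 CPM in control and 0.0699 and 0 CPM in clone 1 on plastic, and its adjusted p was 0.0459, above the threshold without control replicate 1, control replicate 2 or clone 1 replicate 2. Bicdl2 was not called in collagen, at 8.53 and 8.67 CPM in control and 9.0 and 11.1 CPM in clone 1, and measured 1.96 and 0.944 CPM in control and 0.14 and 0 CPM in clone 1 on plastic (adjusted p = 0.00045 for the difference). Scara5, a ferritin receptor, measured 15 and 17.2 CPM in control and 11.2 and 10.6 CPM in clone 1 in collagen and 0.0699 and 0.135 CPM in control and 0.839 and 0.562 CPM in clone 1 on plastic (adjusted p = 0.00494).

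Several lists had another balance on plastic. Of the 30 hypoxia and glycolysis genes, 17 were higher and 2 lower in clone 1 on plastic (median 0.26), and 17 were called lower in collagen than on plastic by the test of the difference. Bnip3 measured 25 and 24.2 CPM in control and 42 and 38.9 CPM in clone 1 on plastic (log2 fold change 0.72, SE 0.10, adjusted p = 1.1e-06), the opposite of its fall in collagen, and its difference between formats was -1.49, SE 0.13, adjusted p = 1.1e-08. ER stress and ATF4 genes had 0 higher (0 also at an unadjusted p of at most 0.05 and in DESeq2) and 9 lower of 24 on plastic, and 11 were called higher in collagen by the test of the difference. Hspa5 measured 1539 and 1512 CPM in control and 1646 and 1560.0 CPM in clone 1 on plastic, without a call, and its difference was 0.59, SE 0.08, adjusted p = 7.4e-06. Of 19 immediate early genes 7 were called for the difference, all higher in collagen.

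Cxcl1 fell on plastic, with 45.8 and 45 CPM in control and 32.4 and 30.7 CPM in clone 1, and its difference between formats was 1.66, SE 0.09, adjusted p = 1.3e-12. Cyr61 rose by 0.32 there, less than in collagen, with a difference of 1.57, SE 0.08, adjusted p = 1.4e-13. Fn1 rose on plastic, with 488 and 535 CPM in control and 717 and 681 CPM in clone 1 (log2 fold change 0.45, SE 0.06, adjusted p = 4.1e-07), and fell in collagen, and its difference was -1.11, SE 0.08, adjusted p = 1.8e-10. Krt14 fell further on plastic (-2.81), with a difference of 1.58, SE 0.14, adjusted p = 2.1e-08. Interferon genes were lower in both formats, 11 of 26 down and 2 up on plastic, and 4 were called for the difference, all lower in collagen.

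**Figure D3:**
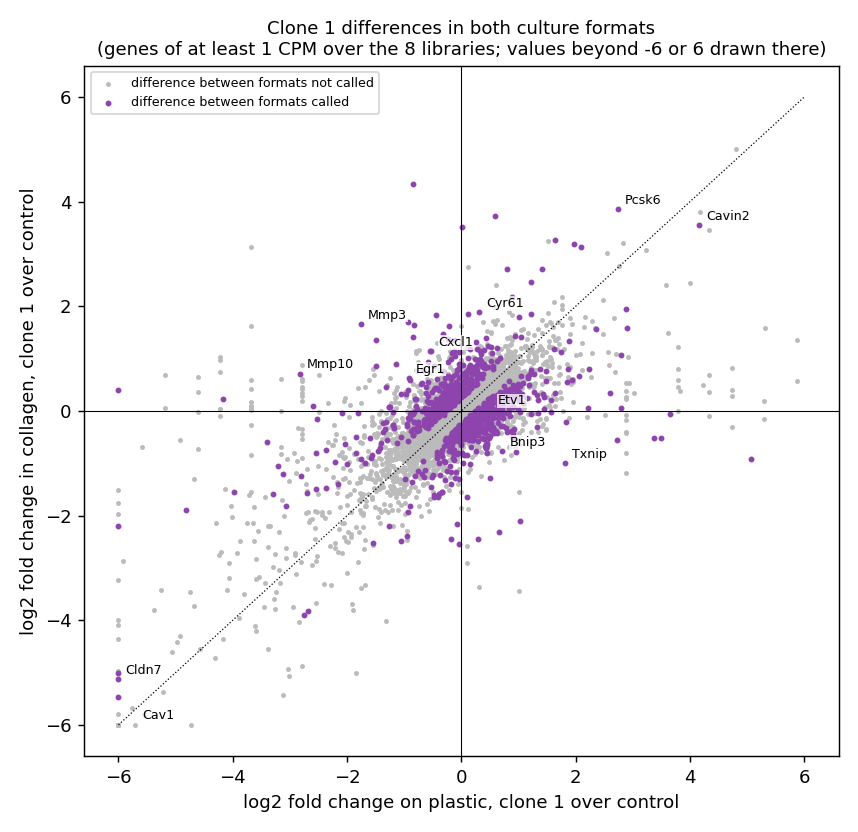
Log2 fold change of clone 1 over control on plastic (x axis) and in collagen (y axis) for the 11430 genes of at least 1 CPM over the 8 libraries, with values beyond -6 or 6 drawn there and genes called for the difference between formats coloured. Most points lie along the diagonal, and Mmp3 and Mmp10 lie above 0 in collagen and below 0 on plastic.

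Clone 2, another clone selected after targeting Etv4, was grown in collagen too. Tested directly, clone 2 differed from clone 1 at 7553 genes (54.9%), 3633 higher in clone 2 (26.4%) and 3920 lower (28.5%). Of the 6201 genes called in clone 1 against control, 4858 (78.3%) had clone 2 called different from clone 1 on the side of control. Both comparisons share the clone 1 libraries, so this count describes the clone 1 values and is no separate support. Etv4 measured 86.6 and 91.5 CPM in clone 2 and Etv5 62.6 and 67.3 CPM, both above clone 1 (differences of 0.36, SE 0.06, adjusted p = 1.2e-05, and 0.60, SE 0.07, adjusted p = 3.6e-08). The median gene of chromosome 11, which holds Etv4, was also higher in clone 2 than in clone 1, by 0.46. On chromosome 16, which holds Etv5, the median was 0.23. The Etv4 difference was thus below the median of its own chromosome.

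Some of the largest falls in clone 1 were not seen at that size in clone 2. Cldn7 measured 109 and 111 CPM there, a difference from clone 1 of 5.19, SE 0.10, adjusted p = 2.8e-24. Cav1 measured 40.6 and 40.1 CPM (6.30, SE 0.15, adjusted p = 7.9e-22), and Rab25 36.3 and 38.3 CPM (6.58, SE 0.19, adjusted p = 3.6e-20). Acsl6, an acyl-CoA synthetase, measured 7.88 and 7.49 CPM in control and 0.038 and 0.129 CPM in clone 1, and 13.6 and 15.4 CPM in clone 2 (7.28, SE 0.36, adjusted p = 1e-14). These 4 genes were high in control and clone 2 and low in clone 1.

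Other genes were low in both clones. Otop1 measured 0.595 and 0.438 CPM in clone 2 and was not called different from clone 1 (0.08, SE 0.44, adjusted p = 0.894). Podnl1 measured 3.60 and 3.10 CPM, also without a call (-0.27, SE 0.18, adjusted p = 0.217). Slc39a4, at 1.01 and 1.28 CPM, and Spata13, at 3.43 and 2.66 CPM, were low in clone 2 but above clone 1 (1.84, SE 0.43, adjusted p = 0.00074, and 2.31, SE 0.27, adjusted p = 4.8e-08). Ube2ql1 had 48 counts in the clone 2 libraries, against 639 in control and 2 in clone 1.

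Other genes that rose in clone 1 were far lower in clone 2. Cavin2 measured 0.455 and 0.584 CPM in clone 2, a difference from clone 1 of -6.75, SE 0.17, adjusted p = 1.5e-21. Pcsk6 measured 0.49 and 0.328 CPM (-6.57, SE 0.18, adjusted p = 1.4e-20) and Tnxb 0.245 and 0 CPM (-6.70, SE 0.38, adjusted p = 1e-13). Against control, Cavin2 and Pcsk6 were called lower in clone 2, and Tnxb was not (adjusted p = 0.0739). Pmp22, a myelin protein gene, measured 5.11 and 4.69 CPM in control and 12.7 and 12 CPM in clone 1 and 0.21 and 0.0365 CPM in clone 2 (-6.56, SE 0.34, adjusted p = 1.9e-14). Sparc, a matricellular protein, rose in clone 1 by 0.25 and measured 1.64 and 1.42 CPM in clone 2 (-5.66, SE 0.10, adjusted p = 1.8e-24). Replication and mitosis genes had 27 of 32 lower in clone 2 against control (17.4% of all genes) and 0 higher in edgeR and in DESeq2, also at an unadjusted p of at most 0.05, beside 18 higher and 5 lower in clone 1, and the direct test called 28 lower in clone 2 than in clone 1 (28.5% of all genes).

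Genes of some chromosomes differed together in clone 1. Positions were known for 13612 of the genes tested (98.9%). On chromosome 11 the median log2 fold change was -0.43, with 743 of 1122 genes lower and 30 higher, against a background of 23.0 and 22.0%. The median was between -0.50 and -0.38 in each of 4 equal groups of the chromosome's genes in order of position. On chromosome 16 it was -0.32, with 233 of 411 lower and 22 higher. Chromosomes 17, 5, 12 and 14 had medians of 0.27, 0.23, 0.23 and 0.21.

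On plastic, in other libraries, the medians were -0.38 for chromosome 11, -0.35 for chromosome 16 and 0.23 for chromosome 17. In clone 2 in collagen they were 0.02, -0.08 and -0.13 against the same control libraries. Clone 2 had a shift of its own on chromosome 1, with a median of -0.53 over 776 genes, where clone 1 had -0.06 in collagen. Chromosome-wide shifts were thus not particular to clone 1. A median of -0.43 corresponds to 74.2% of the control level. The genes given above that lie on chromosome 11 include Etv4, Cldn7, Cavin1, Krt14, Fasn, Srebf1, Acly, Trp53, Jup and Sqstm1. Gaa, Tnip1, Slc39a11, Actg1, Aldoc, Dhx58, Krt19, Cobl, Sparc and Pmp22 lie there too. Those on chromosome 16 include Etv5, Parp14, Parp9, Cxadr and Pkp2. Relative to the medians of their chromosomes, Cldn7 had -4.70, Cavin1 -0.87, Krt14 -0.81 and Parp14 -1.04, all still called. Falls that shrank there but stayed called were those of Gaa (-0.37), Tnip1 (-0.45), Slc39a11 (-0.48), Cxadr (-0.25), Pkp2 (-0.37) and Parp9 (-0.56). The rises of Krt19 (0.82), Cobl (2.0) and Sparc (0.68) were larger there. On that scale the genes called lower numbered 4 of 21 integrins and collagen receptors (7 before), 4 of 17 cadherin and desmosome genes (7 before), 3 of 19 Wnt genes (7 before), 2 of 24 ER stress and ATF4 genes (5 before), 2 of 18 YAP targets (4 before) and 1 of 32 replication and mitosis genes (5 before), and 3 of 14 fatty acid synthesis genes were higher (1 before). DNA copy number was not analysed here, and its part in these values was not tested.

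**Figure D4:**
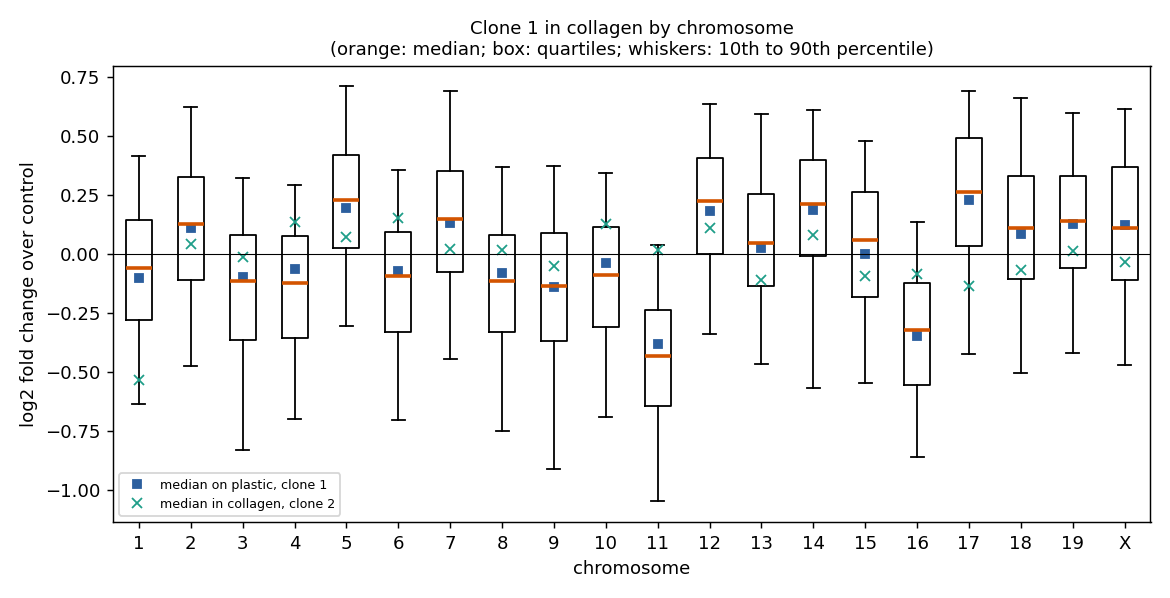
Log2 fold change of clone 1 over control in collagen (y axis) for the genes tested on each chromosome (x axis), drawn as a box of quartiles with the median as an orange line and whiskers from the 10th to the 90th percentile. Squares mark the clone 1 medians on plastic and crosses the clone 2 medians in collagen. Chromosomes 11 and 16 have the lowest clone 1 medians in both formats (-0.43 and -0.32 in collagen) and medians near 0 for clone 2. Clone 2 has its lowest median on chromosome 1 (-0.53).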

How the data were processed

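Values were gene counts in 2 tables deposited by the authors, 1 for collagen and 1 for plastic. Per the submitters' processing notes, FastQC 0.11.9, STAR 2.7.9a, featureCounts and the mm10 build were used; annotation and strand setting are not given in the sources used here. Per the labels, libraries were stranded and polyadenylated.

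The 12 libraries were fitted in 1 model of 6 groups with edgeR 4.0.16 in R 4.3.3 (filterByExpr with a minimum count of 10, TMM scaling, quasi-likelihood F test, 6 residual degrees of freedom). The code was run on simulated counts with few changed genes and no chromosome-wide shifts. That run does not check calls where many genes or whole chromosomes differ, as here. Calls used a Benjamini-Hochberg adjusted p of 0.05. CPM were computed from the deposited counts. Named genes were Etv4, Etv1 and Etv5, the 15 largest rises and 15 largest falls among called genes of at least 5 CPM with an assigned symbol other than a clustered histone, 5 each way for the format and clone contrasts, and per list up to 4 called and 2 uncalled genes with the smallest p; genes outside this rule were chosen after their values were seen, and some genes that the rule names are not reported here. The members and lists were chosen with earlier results of these data known. Ratios at 1 to 3 counts have exact 95% intervals. Alternatives were DESeq2 1.42.0 and its size factors, other filters, fewer libraries in the fit, each library left out, a replicate block, removal of Gm26917 and Gm42418, chromosome centring and genes without overlap.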

Additional observations from a re-analysis of the deposited data

Results flagged for a closer look

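The named genes below differed between collagen and plastic in the size or direction of the clone 1 difference, by edgeR's interaction test (adjusted p at most 0.05, one of 966 such genes). Each value is the log2 difference between clone 1 and control in collagen minus the same difference on plastic, so a positive value means that clone 1 was relatively higher in collagen. Culture format, collagenase digestion and count table differ together between these libraries and cannot be told apart.

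The proteases gave the largest values, 3.54 for Mmp10 and 3.42 for Mmp3. Plau had 0.86, Mmp9 0.50, Adamts1 0.45, Plaur 0.41 and Adam8 -0.62. In the matrix list Lamb3 had 0.80 and Lama3 0.61, against -1.11 for Fn1, -0.93 for Col4a5, -0.85 for Thbs1, -0.53 for Col16a1 and -0.43 for Sparc. The receptors Sdc1 and Itga2 had 0.66 and 0.59.

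Among ERK and EGF genes, Egr1 had 1.55, Dusp5 1.28, Errfi1 0.72, Areg 0.48, Spry1 -0.44, Etv1 -0.50 and Erbb3 -0.60. The immediate early genes Dusp1 and Nr4a1 had 0.78 and 0.67. Cxcl1 had 1.66 and Cxcl5 1.08, while the adhesion receptor Vcam1 had -1.14. YAP targets Cyr61 and Ctgf had 1.57 and 1.02, and the actin genes Cobl, Cnn2, Tpm1 and Actg1 had -0.80, -0.62, -0.39 and -0.33.

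In the list of 30 hypoxia and glycolysis genes, 17 were called relatively lower in collagen and the others were not called lower. The named ones among the 17 had -1.49 for Bnip3, -1.06 for Car9, -0.86 for P4ha1, -0.52 for Ldha and -0.34 for Pgam1. The named chaperones and stress genes called here were relatively higher, with 1.48 for Chac1, 1.37 for Sdf2l1, 0.83 for Hsph1, 0.67 for Calr, 0.59 for Hspa5 and 0.41 for Hsp90b1. Growth genes included Myc (0.36), Rrm2 (0.34) and Ccnd2 (-0.76). Other pathway genes were Dll1 (0.62), Fzd1 (-0.86), Id2 (-1.08), Ltbp2 (-0.44), Dhcr7 (-0.62), Mcoln1 (-0.47) and Sqstm1 (-0.34).

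Epithelial and caveolar genes included Krt14 (1.58), Cldn7 (1.03), Krt19 (-0.43), Cdh1 (-0.40), Vim (-0.33), Cavin1 (-0.32) and Cavin2 (-0.60). Among the other genes with the largest changes in clone 1, Prl2c3 had 1.30, Ass1 1.28, Fgfbp1 1.25, Anxa8 1.23, Pcsk6 1.12, Klk10 1.04, Sirpa -0.93, Pbxip1 -1.13 and Itgb2 -1.16. Txnip had -2.81, Calcoco1 -1.73 and Cplx2 -1.72. Pdgfra, the one fibroblast marker tested, had -0.95.

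For 6 genes a group had at most 3 counts and no fold is given. Their adjusted p was 0.00045 for Bicdl2, 0.00494 for Scara5, 0.0101 for Bspry, 0.0169 for Cd74, 0.0459 for Tmem266 and 0.0471 for Csf1r.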

How the results depend on the processing

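Of 160 named genes called in clone 1 against control in collagen, 147 kept their call and direction under every alternative run, and 13 lost the call in at least 1. Relative to the medians of their chromosomes all 13 lost it, among them Etv4 (-0.053, adjusted p = 0.542 in both ways of centring) and Cldn4, whose sign also turned (-0.093, 0.208). Several uncalled named genes gained a call there and had none under the other alternatives run. Among them were Etv1 (-0.20, 0.00894), Hes1 (0.22, 0.0483), Vim (-0.18, 0.00384), Egfr (0.695, 0.0141), Cd68 (0.62, 0.00959) and Pdgfra (-0.33, 0.0118). Ldha, Pgam1, Irf9, Cav2 and Cxcl2 gained a call there and in the fits of collagen libraries alone. A change of sign in a gene called neither way was not counted. Centring only the collagen libraries of clone 1 raised the count of differences between formats to 2591, because the plastic libraries stayed uncentred, and centring every clone, an alternative chosen after seeing the data, gave 964.

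Among the genes that overlap no other gene, fewer were tested: 1307 were higher, 1428 lower, 110 at least 2-fold higher and 345 at least 2-fold lower in collagen, 2371 differed on plastic, 465 between formats and 3312 between clones. Of the list counts there, 8 interferon genes fell and 10 proteases rose. With DESeq2, or with its size factors in edgeR, 3 cholesterol synthesis genes fell and 2 fatty acid synthesis genes rose. With only the collagen libraries in the fit, 8 replication and mitosis genes and 5 Cdk inhibitors, cyclins and related genes fell. A stricter filter left 452 genes at least 2-fold lower, since fewer low genes were tested. Leaving out 1 collagen library at a time gave 2018 to 2616 genes higher and 434 to 543 that differed between formats. With the replicate number as a block, 2982 genes were higher and 3129 lower. The numbers are not known to pair the libraries, since the deviations of same-numbered control and clone 1 libraries had a correlation of -0.04, and the block ended the calls of Grhl1 (adjusted p = 0.0506) and of Tmem266 between formats (0.0608) among the named ones. Of the calls, the share higher ran from 44.7 to 55.2% over all settings, and scaling moved the median of all genes by at most 0.04. The 2 libraries of a group limit the precision, and depth limits genes with few counts.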
